A study of Mus musculus with 12 samples.

Results

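Quiescent neural stem cells sorted 48 h after irradiation of the animals were compared with unirradiated quiescent neural stem cells, by all genes that a probe set names with a single symbol. The comparison took the 4 arrays titled as quiescent cells 48 h after irradiation and the 3 arrays titled as quiescent cells for which values were at hand (replicates 1, 2 and 4), which is 7 of 10 arrays with values and of 12 samples described. It covered 18193 genes. All cells were sorted fresh from adult brain tissue, the subventricular zone of male C57B6J mice. Activated stem cells, the third state of the study, are given on 3 arrays (replicates 1 to 3) as a scale of what an active stem cell population shows on the same platform. The sources used here do not give the radiation dose, the exact age of the mice, the sort markers or how many animals made up a sample. RNA was amplified with a whole transcriptome kit for small amounts of input and hybridised to Affymetrix MOE 430 2.0 arrays, which read most genes near their 3' end. Whether the replicates are separate animals is not stated, so the spread behind each p-value is that between these samples and may be technical. The number of arrays limits the precision.

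Adult neural stem cells of the subventricular zone are astrocyte-like cells that line the lateral ventricle. Most of them rest outside the cell cycle, and those that become active divide, produce transit amplifying cells and, through these, neuroblasts that migrate to the olfactory bulb. Ionising radiation breaks DNA and activates p53, which switches on arrest, repair and death genes, and it depletes the dividing cells of this region while resting stem cells largely persist.

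Values are intensities on the linear scale of the deposited table, where an intensity of at most 10 is near the lower limit. Differences are irradiated minus quiescent on the log2(intensity + 16) scale, which understates the change of dim genes. They are given with the standard error (SE) from limma. A gene is called when its adjusted p is under 0.05 in limma over all genes. Intensities of arrays are listed in replicate order: 1, 2 and 4 for quiescent cells, 1 to 4 for irradiated cells and 1 to 3 for activated cells.

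The sorted populations carried an astroglial signature with and without irradiation. The summed intensity of 10 markers of astroglia and quiescent stem cells was 122388, 128756 and 125070 on the quiescent arrays. It was 129919, 117349, 121747 and 119297 on the irradiated arrays, so the groups overlapped, against 31015 to 44212 on the activated arrays. Bright markers weigh most in these sums, and Slc1a2 alone added 26003 to 27506 on the irradiated arrays. For 2 of the 10 markers every irradiated array lay below every quiescent array, beside 1.37% of all genes, and for none above. The 5 markers of dividing cells summed to 43 to 232 on the quiescent arrays and 39 to 64 on the irradiated arrays, against 18844 to 21204 in activated cells, and Top2a, Cdk1 and Aurkb among them stayed near the lower limit throughout. Markers of other cell types were present at uneven levels. The 6 neuron markers summed to 11781 on quiescent array 1 and to 725 to 2690 on the other arrays of both groups. The 6 endothelial markers summed to 627, 627 and 30 on the quiescent arrays and to 30 to 119 on the irradiated arrays. The 8 markers of microglia and macrophages summed to 76 to 1758 and 188 to 2698, with Aif1, Tmem119 and C1qa near the lower limit on all 7 arrays. Choroid plexus markers summed to 10798 to 17871 and 10021 to 20123, nearly all of it Ttr, with Folr1 and Aqp1 near the limit throughout. Oligodendrocyte markers summed to 10656 to 16179 and 9153 to 16690. The 4 lymphocyte markers summed to at most 26 on any of the 7 arrays and the erythroid markers to 8. In these bulk samples, fewer cells of a type and less RNA per cell cannot be told apart.

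**Figure D1:**
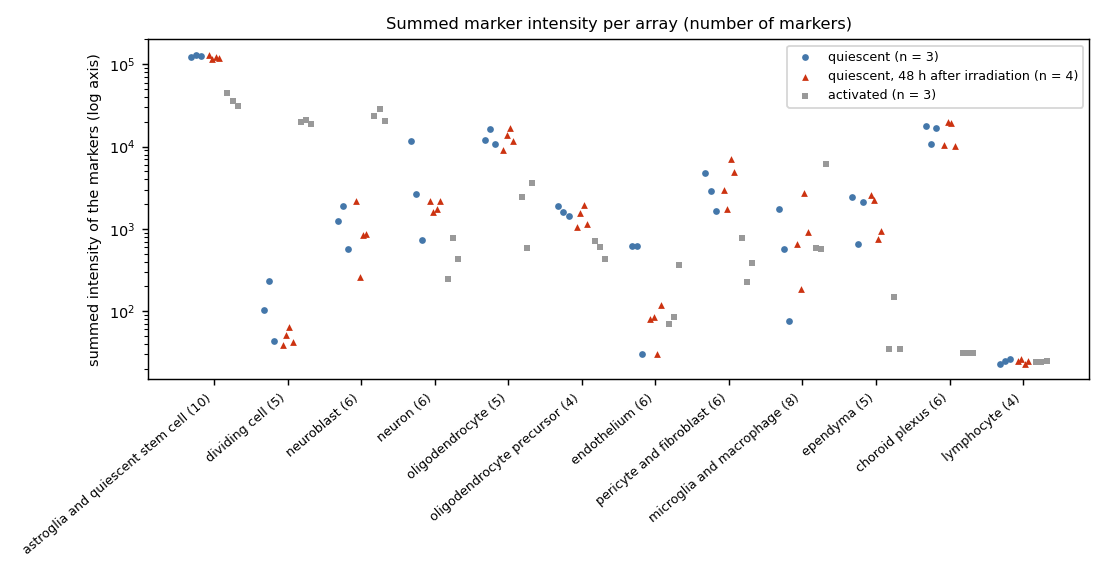
Summed intensity (log axis) of the marker genes of each cell type on each quiescent, irradiated and activated array, with the number of markers in brackets. Astroglial sums of the irradiated arrays (117349 to 129919) overlap those of the quiescent arrays, and the sums of dividing cell markers stay between 39 and 232 in both groups, against at least 18844 in activated cells.

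The array-level spread was about as large as the difference between the groups. Across 7464 genes with a mean of at least 100 in either group, 2 irradiated arrays correlated with r between 0.62 and 0.709 (median 0.659), and an irradiated with a quiescent array with r between 0.608 and 0.723 (median 0.658). Across the same genes an irradiated and an activated array correlated with r between 0.44 and 0.559. Genes, the points of these correlations, are not independent of each other. The median SD over these genes on the log2 scale was 0.896 in quiescent and 1.02 in irradiated arrays, beside a median absolute difference of 0.612 between the group means. Differences above 1 on this scale were seen in 2222 of the genes (29.8%). Among the 768 genes above 1000 on all 7 arrays the SDs were 0.366 and 0.378 and the median absolute difference was 0.26, and only 18 of them differed by more than 1.

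The unevenness showed in single arrays. Irradiated array 2 had 25 genes near the lower limit that exceeded 100 on the other 6 arrays, quiescent array 2 had 22, and quiescent array 1 had 1. Ninj1, which encodes a membrane protein of plasma membrane rupture, was at 163, 17 and 4 on the quiescent arrays and at 6, 12423, 20 and 4 on the irradiated arrays. Bex1 was at 478, 5 and 16728 in quiescent cells and at 6425, 5, 5 and 5 in irradiated cells. Gtf2h4, a subunit of the transcription and repair factor TFIIH, was at 25, 44 and 6 against 5293, 7, 367 and 5, and Arhgef1 was at 71, 59 and 480 against 360, 32, 13878 and 15. These 4 genes had the widest spread among genes with an irradiated mean of at least 1000, and in each of them 1 irradiated array supplied most of the mean. The most abundant transcripts behaved otherwise: Malat1, Cst3, Slc1a2, Ptn and Clu, the 5 brightest genes of irradiated cells, differed between the groups by between -0.12 and 0.10.

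Irradiation left 2 genes past the threshold. Mrpl4, a protein of the large subunit of the mitochondrial ribosome, rose, and Mgat4a, a Golgi enzyme that adds a branch to N-linked glycans, fell. These are 0.0110% of the 18193 genes tested, 0.00550% in each direction. At an unadjusted p under 0.05 in limma, 356 genes were higher (1.96%) and 364 lower (2.00%), and the arrays of both groups did not overlap for 290 genes that were higher (1.59%) and 250 that were lower (1.37%), together 2.97%. The median difference over all genes was 0. By the same fit, activated cells differed from irradiated quiescent cells in 1288 called genes (7.08%), 619 higher (3.40%) and 669 lower (3.68%), a comparison that shares the irradiated arrays with the one above.

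**Figure D2:**
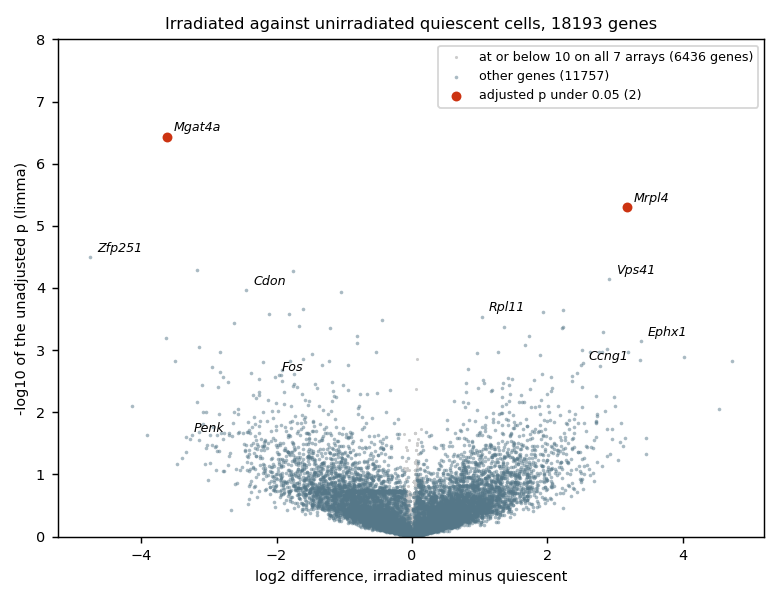
Log2 difference between irradiated and quiescent cells (horizontal axis) against -log10 of the unadjusted p of limma (vertical axis), 1 point per gene for 18193 genes. Mrpl4 (3.17) and Mgat4a (-3.62) are the genes called, and higher and lower genes are about equally many.

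Mgat4a was at 305, 304 and 157 in quiescent cells and at 5, 5, 6 and 5 in irradiated cells, with 5, 10 and 5 in activated cells. The quiescent mean was 255 ± 85.2 (SD, n = 3), and all 4 irradiated and all 3 activated arrays were near the lower limit. The difference was -3.62 ± 0.22 (SE; limma, adjusted p = 0.00664). It was the one gene above 100 on every quiescent array and at most 10 on every irradiated array, and no gene showed the reverse. Its call was lost in 5 of 20 alternative analyses. The adjusted p in limma was 0.0682 without irradiated array 1, 0.0693 without irradiated array 2 and 0.113 in a fit of the 7 arrays alone. With the mean of its probe sets (-1.92) the adjusted p was 0.072, and with the replicate number as a block 0.317.

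Mrpl4 was at 33, 28 and 79 in quiescent cells, at 449, 499, 576 and 546 in irradiated cells and at 250, 310 and 206 in activated cells. The irradiated arrays lay close together and far above the quiescent arrays, and the activated arrays lay between them. Mean intensity was 46.7 ± 28.1 (SD, n = 3) and 518 ± 55.6 (SD, n = 4), an 11.1-fold ratio, and the difference was 3.17 ± 0.27 (SE; limma, adjusted p = 0.0454). The call is close to the threshold and was lost in 14 of 20 alternative analyses, where the adjusted p ranged from 0.000492 to 0.699. The number of calls itself depended on single arrays. It was 5 higher and 12 lower without quiescent array 1, 1 and 11 without quiescent array 2, 4 and 40 without quiescent array 4, and 0 and 0 without irradiated array 1 or without irradiated array 2. Without irradiated array 4 it was 1 and 2. Leaving out activated array 1, 2 or 3, which changes only the shared estimate of spread, gave 0 higher with 2, 1 and 1 lower.

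Among the genes that were not called and are not predicted genes, 240 with a mean of at least 100 in the higher group had every irradiated array above every quiescent array, and 192 had every irradiated array below. With called and predicted genes included, these numbers were 248 and 201 of all 7464 genes with such a mean, together 6.02%. The 14 of each with the smallest p are plotted with the called genes and had adjusted p from 0.195 to 0.560 in limma. None of them passed the test, so their values are given as descriptions.

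The higher genes are given by what they encode, beginning with vesicle traffic and the ribosome. Vps41, a subunit of the HOPS complex that tethers late endosomes to lysosomes, was at 111, 75 and 195 in quiescent cells and at 856, 1296, 890 and 982 in irradiated cells (2.91 ± 0.37, adjusted p = 0.221 in limma). Mvb12a, a subunit of the endosomal sorting complex ESCRT-I, was at 21, 52 and 13 against 437, 223, 180 and 337 (2.82 ± 0.48). For both genes the lowest irradiated array was more than 3 times the highest quiescent array. Rpl11, a protein of the large ribosomal subunit that can bind and inhibit Mdm2, was at 2713, 1779 and 1962 against 3743, 4147, 5114 and 4488 (1.03 ± 0.16). Npm1, the nucleolar chaperone of ribosome assembly, was at 2348, 1319 and 2287 against 5562, 4608, 3975 and 5877 (1.36 ± 0.23). Both were higher still in activated cells, at 8497 to 9864 for Rpl11 and at 11760 to 13061 for Npm1. Ankzf1, which serves the quality control of stalled ribosomes, was at 24, 32 and 17 against 315, 204, 153 and 85 (2.24 ± 0.37).

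Hadha, the alpha subunit of the mitochondrial trifunctional protein of fatty acid oxidation, was at 907, 843 and 432 in quiescent cells and at 2313, 1900, 2492 and 2705 in irradiated cells (1.73 ± 0.30). Dlst, a subunit of the 2-oxoglutarate dehydrogenase complex of the citric acid cycle, was at 133, 87 and 92 against 324, 265, 390 and 500 (1.67 ± 0.31). Aldh3a2, which oxidises fatty aldehydes, was at 480, 131 and 206 against 1627, 925, 2530 and 1082 (2.51 ± 0.48). In each of these genes the groups were apart. For Dlst a second probe set overlapped at 30, 424 and 44 against 107, 5, 8 and 135, and the mean of probe sets gave 0.18. Ephx1, the microsomal epoxide hydrolase, was at 318, 33 and 64 against 909, 1799, 977 and 991 (3.38 ± 0.61), with quiescent array 1 nearest to the irradiated arrays. Without that array it was among 5 higher genes past the threshold (limma, adjusted p = 0.0182). The array left out was the one that disagreed, so the pass is a description only. Ephx1 was at 7 on all 3 activated arrays.

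Tcf7l1, a transcription factor that represses Wnt target genes in the absence of beta-catenin, was at 27, 26 and 26 in quiescent cells, at 184, 215, 89 and 300 in irradiated cells and at 16, 11 and 20 in activated cells (2.22 ± 0.34). Its quiescent arrays were almost equal, and it passed the threshold only without irradiated array 3, its lowest (limma, adjusted p = 0.0439). Leaving out the array nearest to the other group makes this pass a description only. Pcdh1, a protocadherin of cell adhesion, was at 26, 39 and 38 against 299, 156, 169 and 118 (1.94 ± 0.29). Smarcal1, an annealing helicase that restarts stalled replication forks, was at 12, 37 and 8 against 79, 223, 149 and 132 (2.22 ± 0.37). A second Smarcal1 probe set went the other way, at 42, 97 and 221 against 31, 10, 6 and 69, and the mean of probe sets gave 0.19. Pomt1, which starts O-mannosylation of dystroglycan, was at 66, 22 and 14 against 607, 296, 150 and 911 (3.20 ± 0.62). The last of the higher genes was Lrrc28, at 6, 12 and 21 against 451, 227, 67 and 187 (2.88 ± 0.55). A second probe set of Lrrc28 pointed the other way, at 10, 37 and 259 against 5 on every irradiated array.

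The lower genes included regulators of splicing, adhesion and the cytoskeleton. Zfp251, a zinc finger protein, had the largest fall of any gene in size, from 1585, 1558 and 688 to 29, 14, 32 and 46 (-4.76 ± 0.53), and still missed the threshold (limma, adjusted p = 0.195). Pcdhb19, a clustered protocadherin, was at 262, 71 and 259 in quiescent cells and at 5, 5, 5 and 4 in irradiated cells (-3.18 ± 0.38). Tspyl3 was at 228, 923 and 278 against 5, 13, 75 and 5 (-3.63 ± 0.64). Lrch1 was at 167, 422 and 232 against 4, 6, 19 and 5 (-3.51 ± 0.71). In irradiated cells these last 3 genes were at or close to the lower limit on most arrays.

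Srsf1, a splicing factor, was at 1872, 1566 and 2557 in quiescent cells, at 548, 418, 258 and 628 in irradiated cells and at 5327 to 8270 in activated cells (-2.11 ± 0.33). Its irradiated arrays were below its quiescent arrays on 3 further probe sets, for instance at 256, 245, 259 and 148 against 618, 722 and 1067. Of the 30 genes with the smallest p it was the one with a further separated probe set of a mean of at least 100 in the same direction. Dimmer ones were also separated upwards for Ankzf1 and Mvb12a. Cdon, a co-receptor of hedgehog ligands, was at 386, 164 and 163 against 42, 24, 23 and 22 (-2.45 ± 0.33), and at 1156 to 1848 in activated cells. Myh10, the heavy chain of non-muscle myosin IIB, was at 900, 171 and 305 against 13, 46, 53 and 12 (-3.14 ± 0.59), and at 2460 to 3852 in activated cells. Pcgf2, a Polycomb protein, was at 197, 59 and 58 against 14, 15, 14 and 14 (-1.81 ± 0.37), and at 398 to 592 in activated cells. In Srsf1, Cdon, Myh10 and Pcgf2 the irradiated arrays were thus the lowest of the 3 states. The groups were also apart for Rc3h2, an RNA-binding protein of mRNA decay, at 252, 552 and 582 against 20, 83, 65 and 80 (-2.63 ± 0.43), and for Nkiras1, a Ras-like inhibitor of NF-kB signalling, at 739, 820 and 1277 against 412, 206, 434 and 285 (-1.47 ± 0.29).

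Other lower genes followed the direction of the activated cells or depended on the probe set. Apc2, a relative of the Wnt pathway scaffold APC, was at 486, 341 and 718 against 118, 139, 180 and 173 (-1.61 ± 0.24) and at 8 in all activated cells. A further Apc2 probe set was higher after irradiation, at 54, 24 and 113 against 259, 266, 360 and 245. Lamp2, a lysosomal membrane protein, was at 6967, 9664 and 6078 against 4184, 4077, 4342 and 4384 (-0.80 ± 0.15). A further Lamp2 probe set was higher, at 410, 341 and 549 against 1304, 817, 1188 and 820, and the mean over its probe sets gave a difference of 0.28. Across the 30 genes plotted, 11 had a second probe set with a mean of at least 100. All such probe sets went the same way in 4 of these genes, and some went the opposite way in 7. With the mean over all probe sets, dim ones included, the differences were 1.63 for Vps41, 0.81 for Ankzf1, 1.57 for Mvb12a, 0.37 for Lrrc28, -1.31 for Cdon, -1.55 for Myh10, -0.43 for Rc3h2, -0.94 for Pcgf2, -1.99 for Tspyl3, -0.71 for Galnt2 and -0.20 for Apc2.

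**Figure D3:**
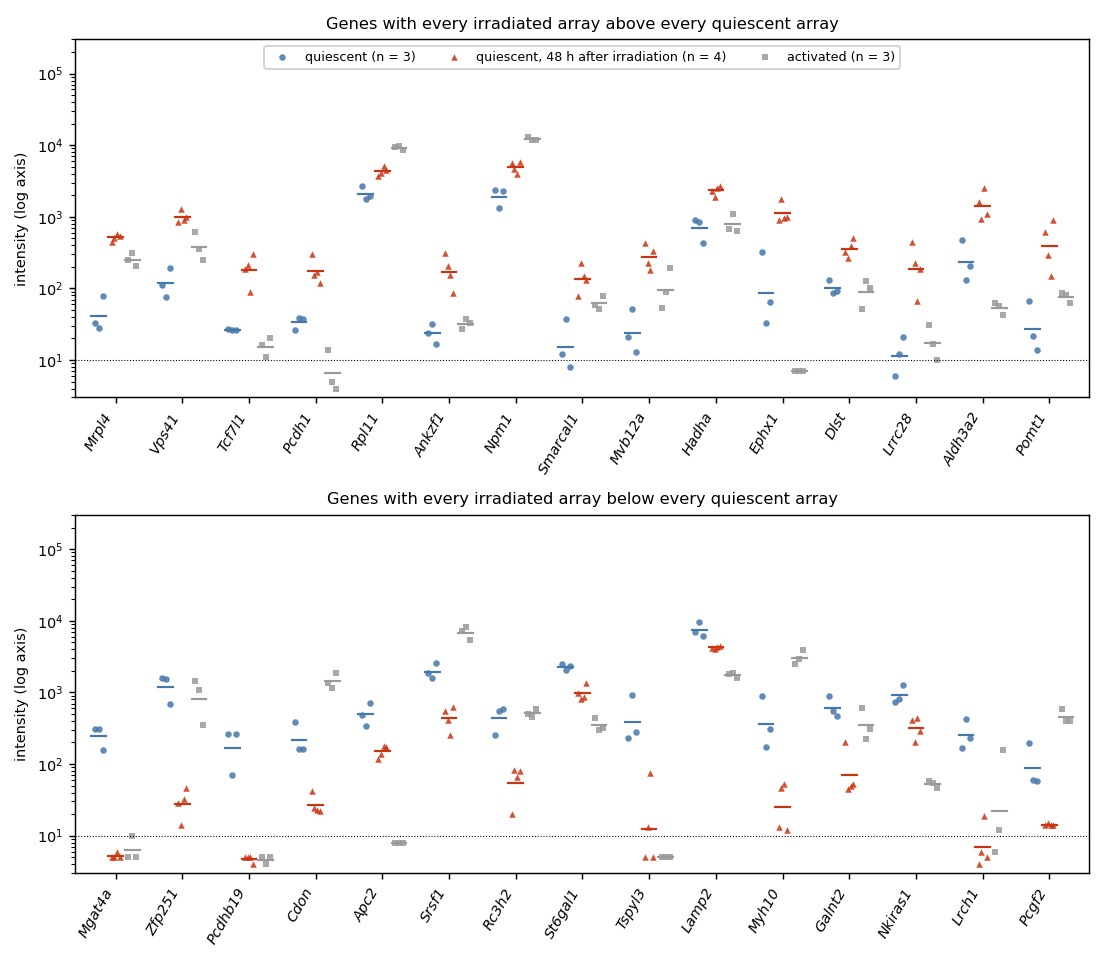
Intensity (log axis) on each quiescent, irradiated and activated array for the called genes and the 14 higher (top) and 14 lower (bottom) genes with the smallest p whose groups do not overlap. Short lines are geometric means and the dotted line is the near-limit intensity of 10. By selection every irradiated array lies beyond every quiescent array, and in Srsf1, Cdon, Myh10 and Pcgf2 the activated arrays lie on the other side of the quiescent arrays.

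The response to DNA damage through p53 was represented by a list of 37 measured target genes, 6 of them near the lower limit on all 7 arrays. None was called, 1 was higher at an unadjusted p under 0.05 in limma and none lower, beside 3.96% of all genes in either direction. The groups were apart for 2 of them, both higher (1.59% of all genes), and the median difference of the list was 0.09, against 0 over all genes. Of the 31 members above the lower limit, 21 had a higher and 10 a lower irradiated mean, and their median was 0.40. Among all genes above the limit 6083 were higher and 5667 lower, with a median of 0.03. The gene past the unadjusted threshold was Ccng1, cyclin G1, which recruits a phosphatase to Mdm2. It was at 254, 196 and 127 in quiescent cells, at 1049, 832, 1646 and 1122 in irradiated cells and at 425, 386 and 1630 in activated cells. Every irradiated array was more than 3 times as bright as every quiescent array. The difference was 2.50 ± 0.52 (SE; limma, unadjusted p = 0.00173, adjusted p = 0.594). A second probe set of Ccng1 overlapped between the groups, at 347, 395 and 162 against 204, 974, 449 and 391, and the mean of probe sets gave 1.40.

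Cdkn1a, the p21 inhibitor of cyclin-dependent kinases, was at 40, 20 and 30 in quiescent cells and at 36, 95, 459 and 172 in irradiated cells (1.74 ± 0.87, adjusted p = 0.970 in limma). Irradiated array 1 lay within the quiescent range and the other irradiated arrays above it. The second Cdkn1a probe set was at 5 on each quiescent array and at 544, 5, 226 and 6 on the irradiated arrays. Irradiated array 3 was thus bright on both probe sets, array 1 on the second and array 4 on the first. Sesn2, a stress-induced inhibitor of mTORC1, was at 20, 19 and 29 against 158, 37, 37 and 483 (1.70 ± 0.94), with every irradiated array above the quiescent arrays but only arrays 1 and 4 clearly so. Ddit4, another inhibitor of mTORC1, was at 3675, 1222 and 2118 against 2771, 6962, 4668 and 3141 (0.95 ± 0.45). Mdm2, the ubiquitin ligase of p53, was at 303, 8 and 1099 against 451, 112, 122 and 1969 (0.81 ± 1.69), and Phlda3, an inhibitor of Akt, was at 275, 323 and 113 against 164, 68, 137 and 1061 (-0.06 ± 0.83). Both spanned more than 10-fold within the irradiated group. A steadier second probe set of Mdm2 was at 169, 186 and 224 against 138, 276, 360 and 98, a difference of 0.01.

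Promoter windows of Ccng1 and Cdkn1a are shown because these genes had the largest differences among the p53 targets described. Only windows that hold a match to the p53 consensus were kept. A window at another start of either gene without a match would not be shown. Capitals mark matches to the 10-base unit of the p53 consensus element. The windows run from 250 bases before to 50 bases after a start in RefSeq on GRCm38.p6, which need not be the main start of the gene. The Ccng1 window is at chr11:40755237-40755536 on the minus strand and the Cdkn1a window at chr17:29090729-29091028 on the plus strand.

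Ccng1: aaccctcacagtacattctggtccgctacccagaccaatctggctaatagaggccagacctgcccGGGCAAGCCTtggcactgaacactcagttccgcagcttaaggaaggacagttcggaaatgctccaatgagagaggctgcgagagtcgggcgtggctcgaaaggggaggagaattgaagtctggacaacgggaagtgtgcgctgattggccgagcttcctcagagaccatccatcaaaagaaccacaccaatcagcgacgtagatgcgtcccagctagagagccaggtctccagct

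Cdkn1a: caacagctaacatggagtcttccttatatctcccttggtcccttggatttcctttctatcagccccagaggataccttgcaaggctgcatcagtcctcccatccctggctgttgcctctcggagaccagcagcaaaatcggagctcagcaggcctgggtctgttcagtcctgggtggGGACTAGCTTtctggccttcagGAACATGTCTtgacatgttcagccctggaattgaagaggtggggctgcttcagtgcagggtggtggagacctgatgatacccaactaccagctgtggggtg

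The Ccng1 window shown holds 1 match and the Cdkn1a window shown holds 2, and both were kept for holding a match. Searched on both strands, the unit occurred in 2745 of 32851 promoters of this length (8.36%) and in 11 of 40 promoters of the p53 list (27.5%), which belong to 29 genes. A match is a description of the letters, and binding was not measured.

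DNA repair and cell death genes did not pass an unadjusted p under 0.05 in limma. Of the senescence genes 5.56% did, beside 3.96% of all genes. List medians that hold many genes near the lower limit can show little. Over members above the limit the medians were 0.06 for repair, 0.14 for cell death and 0.34 for senescence genes, beside 0.03 for all genes. Of 41 genes of DNA break repair and damage signalling, none passed an unadjusted p under 0.05 and the median was 0.02. Nbn, a subunit of the MRE11 break sensor complex, was the one whose groups were apart (2.44% of the list, beside 2.97% of all genes). It was at 50, 12 and 104 in quiescent cells and at 256, 446, 105 and 150 in irradiated cells, with irradiated array 3 next to quiescent array 4. Of 28 regulators of cell death none passed, with a median of 0.02. The pro-apoptotic Bad was at 305, 137 and 318 against 477, 512, 321 and 434 (0.81 ± 0.37). Of 36 senescence and secreted inflammatory genes, 18 were near the lower limit throughout, 1 was higher, 1 was lower and the median was 0. Of the members above the limit, 11 had a higher and 7 a lower irradiated mean. Of 34 reactive astrocyte genes, 1 was higher and 1 lower (5.88%, beside 3.96% of all genes), with a median of 0. None of 22 NF-kB and complement genes passed. Over members above the limit the median was 0.22 in the reactive astrocyte list and also in the NF-kB and complement list. Gfap, the intermediate filament of astrocytes, was at 418, 164 and 7 against 2424, 300, 268 and 154 (1.85 ± 1.26), with irradiated array 1 far above the others, and the mean of its probe sets gave 0.40.

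Cell cycle transcripts were low with and without irradiation. Of 53 mitotic genes, 31 did not exceed 10 on any of the 7 arrays. The number above 100 was 3, 5 and 4 on the quiescent arrays, 3, 4, 5 and 2 on the irradiated arrays and 50, 52 and 48 on the activated arrays. The irradiated minus quiescent median was 0, and -0.1 over the 22 members above the limit, of which 10 were higher and 12 lower. At an unadjusted p under 0.05, 2 genes were lower, beside 2.00% of all genes, and none higher. In activated cells 48 of the 53 were called higher than in irradiated cells (median 5.21), beside 3.40% of all genes. Of 49 genes of the G1 to S transition and replication, 13, 12, 14 and 13 exceeded 100 on the irradiated arrays, 17, 13 and 16 on the quiescent arrays and 39 on each activated array. In this list 1 gene was higher and 2 were lower at an unadjusted p under 0.05, beside 1.96% and 2.00% of all genes, and the median was 0.

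Members with lower values after irradiation stood beside these medians near 0. Mki67, which marks cycling cells, was at 77, 161 and 12 in quiescent cells, at 13, 18, 9 and 11 in irradiated cells and at 9566 to 11152 in activated cells (-1.44 ± 0.54, adjusted p = 0.970 in limma). Quiescent array 4 lay within the irradiated range, and without it Mki67 passed the threshold (-2.17, adjusted p = 0.0464 in limma). That array was the one that disagreed, and leaving it out gave 40 lower calls over all genes, so the pass is a description only. Mad2l1, of the spindle checkpoint, was at 355, 34 and 1123 against 34, 37, 40 and 48 (-2.32 ± 0.92), again high on 2 of 3 quiescent arrays, though not the same pair. Rrm2, a subunit of ribonucleotide reductase, was at 394, 283 and 498 against 5, 5, 169 and 40 (-3.11 ± 0.74), with all irradiated arrays lower, while its next probe set overlapped at 27, 257 and 14 against 8, 7, 34 and 196. Ccne1, cyclin E1, was at 156, 75 and 71 against 10, 37, 34 and 75 (-1.15 ± 0.43).

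Cdk4, the G1 kinase that phosphorylates Rb, went the other way. It was at 163, 64 and 130 in quiescent cells, at 1149, 442, 244 and 461 in irradiated cells and at 3701 to 5276 in activated cells (1.99 ± 0.51, adjusted p = 0.842 in limma). All 3 Cdk4 probe sets had every irradiated array above every quiescent array, at 90, 51 and 46 against 705, 345, 199 and 302 on the second and at 42, 19 and 38 against 277, 108, 102 and 181 on the third. The cyclins it pairs with did not share this. Ccnd1 was at 14, 23 and 13 against 10, 12, 10 and 14 (-0.24 ± 0.26), and Ccnd2 at 170, 451 and 2274 against 418, 387, 1373 and 1263 (0.36 ± 0.87). Both were far higher in activated cells, at 230 to 555 for Ccnd1 and 16228 to 18040 for Ccnd2.

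Markers of activation were near or below the unirradiated level. Egfr, a growth factor receptor often used to mark activated stem cells, was at 1338, 2488 and 683 in quiescent cells, at 790, 219, 830 and 935 in irradiated cells and at 3359 to 4935 in activated cells (-1.09 ± 0.60), and the mean of its probe sets gave -0.15. Nes, nestin, was at 11, 6 and 6 against 7, 6, 10 and 6, both groups at the lower limit, and at 120 to 283 in activated cells. Of 30 genes of activated stem and transit amplifying cells, 3 were lower (2.00% of all genes) and none higher at an unadjusted p under 0.05. The groups were apart for 3, all lower (1.37% of all genes), and the median was 0. The median of 28 neuroblast genes was -0.28 (between -0.54 and 0.0 over the alternatives). At an unadjusted p under 0.05, 1 of them was lower, beside 2.00% of all genes, and none higher. That gene, Stmn1, a microtubule regulator, was at 4283, 9131 and 7569 against 5144, 3724, 3038 and 4262 (-0.75 ± 0.27). Dcx, doublecortin, was at 5, 88 and 5 against 5 on every irradiated array, and Dlx2 at 94, 15 and 277 against 964, 112, 13 and 543. The summed neuroblast markers overlapped, at 566 to 1923 and 264 to 2170, and were 20184 to 28370 in activated cells.

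**Figure D4:**
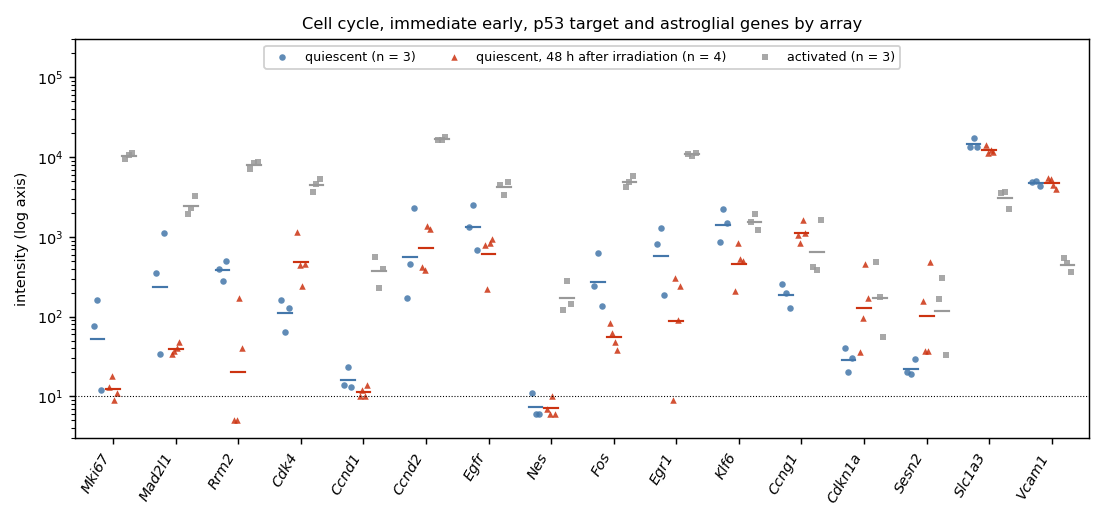
Intensity (log axis) on each quiescent, irradiated and activated array for cell cycle, activation, immediate early, p53 target and astroglial genes. Short lines are geometric means and the dotted line is the near-limit intensity of 10. Mki67, Mad2l1 and Rrm2 reach at most 169 on the irradiated arrays against at least 1930 on the activated arrays, Cdk4 and Ccng1 lie above and Fos and Klf6 below the quiescent arrays, and Slc1a3 and Vcam1 overlap.

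Immediate early genes, which respond within minutes to stimulation and to tissue dissociation, were mostly lower after irradiation. Of 38 such genes, 31 were above the lower limit, of which 25 had a lower and 6 a higher irradiated mean. Among all genes above the limit 5667 were lower and 6083 higher. The median difference of the list was -0.23 (between -0.43 and -0.09 over the alternatives). At an unadjusted p under 0.05, 3 were lower, beside 2.00% of all genes, and none higher, and none was called. Fos was at 244, 619 and 137 in quiescent cells, at 83, 63, 48 and 38 in irradiated cells and at 4246 to 5726 in activated cells (-2.02 ± 0.46, adjusted p = 0.716 in limma). Klf6, a zinc finger transcription factor, was at 865, 2255 and 1499 against 209, 826, 530 and 492 (-1.60 ± 0.49). For both genes every irradiated array lay below every quiescent array. A second Klf6 probe set overlapped, at 156, 74 and 248 against 462, 26, 27 and 1560, and the mean of probe sets gave -0.08. Egr1 was at 806, 1289 and 185 against 9, 305, 91 and 242 (-2.30 ± 0.98) and Jun at 3368, 2556 and 1609 against 2290, 1831, 822 and 919 (-0.84 ± 0.43), and both overlapped. Hspa1a, the inducible HSP70, was at 152, 219 and 6 against 6, 6, 6 and 12 (-2.03 ± 0.75), so that quiescent array 4 had the irradiated level. Without that array Hspa1a was among 40 lower genes called (limma, adjusted p = 0.00318). As the array left out was the one that disagreed, this call is a description only. The time from death to sorting was not used here.

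Interferon-stimulated genes, which also respond to cytosolic DNA, gave 2 higher and none lower of 49 at an unadjusted p under 0.05. The higher share over all genes was 1.96%. None was called, and the median was 0.14 (between 0.08 and 0.82 over the alternatives). Of the 39 members above the lower limit, 28 had a higher and 11 a lower irradiated mean, with a median of 0.51. Ifit2 was at 11, 6 and 6 in quiescent cells, at 84, 11, 116 and 167 in irradiated cells and at 250 to 814 in activated cells (1.93 ± 0.68). Oasl2 was at 5, 14 and 5 against 89, 383, 5 and 118 (2.14 ± 0.86). In each gene 3 of 4 irradiated arrays were clearly higher and the fourth was at the quiescent level, array 2 for Ifit2 and array 3 for Oasl2. B2m, the light chain of MHC class I, was at 2740, 1163 and 2648 against 3665, 3471, 2745 and 4113 (0.76 ± 0.36), and Samhd1, a dNTP hydrolase, at 28, 49 and 63 against 91, 717, 78 and 142 (1.60 ± 0.81). Both were higher on every irradiated array, by a small margin for the lowest of them. Lgals3bp, a secreted glycoprotein, was at 2181, 29 and 188 against 1500, 2372, 1630 and 2697 (2.88 ± 1.24), with quiescent array 1 inside the irradiated range. The microglial marker sums given above overlapped between the groups, and their part in these values was not tested.

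Genes of the mitochondrion and of the ribosome are given beside all genes above the lower limit, of which 6083 had a higher and 5667 a lower irradiated mean on the log2 scale. Of 76 mitochondrial ribosomal proteins, 51 had a higher and 25 a lower irradiated mean, and the median difference was 0.48, against 0 over all genes and 0.01 over those with a mean of at least 100 in either group. Besides the called Mrpl4, 3 were higher and 1 lower at an unadjusted p under 0.05, beside 1.96% and 2.00% of all genes. Mrpl57 was at 21, 196 and 14 in quiescent cells and at 356, 407, 337 and 148 in irradiated cells (2.32 ± 0.72). Mrpl35 was at 24, 15 and 348 against 517, 301, 436 and 827 (2.72 ± 0.85). Without quiescent array 4, its highest, it was among 4 higher genes called (limma, adjusted p = 0.0438). That array was the one that disagreed, so the call is a description only. The second Mrpl35 probe set went the other way, at 116, 5 and 309 against 5 on every irradiated array, and the mean of Mrpl35 probe sets gave 0.11. Mrps10 was at 129, 52 and 7 against 151, 119, 377 and 287 (1.90 ± 0.64). For these 3 genes 1 quiescent array overlapped the irradiated arrays, and it was a different array each time. Mrps27 was lower on every irradiated array, at 229, 72 and 68 against 61, 42, 22 and 26 (-1.24 ± 0.47). Without quiescent array 2 the median of the list was 0.14.

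Of 60 respiratory chain and ATP synthase genes, 46 had a higher and 13 a lower irradiated mean, and the median was 0.27 (between 0.17 and 0.53 over the alternatives). At an unadjusted p under 0.05, 7 were higher, beside 1.96% of all genes, and none lower, and none was called. Most of those 7 encode subunits of complex I. Ndufa9 was at 662, 358 and 318 against 1678, 973, 974 and 906 (1.34 ± 0.32), and Ndufa6 at 278, 135 and 307 against 575, 623, 795 and 443 (1.33 ± 0.35). Ndufa3 was at 2806, 2465 and 3651 against 5169, 5117, 5143 and 4383 (0.75 ± 0.24). Ndufa4, now assigned to complex IV, was at 3149, 1303 and 3073 against 3165, 3989, 5214 and 3872 (0.77 ± 0.32). All 4 genes were higher on every irradiated array, although by a small margin for the lowest Ndufa4 array.

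Of 34 genes of fatty acid oxidation and ketone metabolism, 23 had a higher and 11 a lower irradiated mean, with a median of 0.40 that fell to 0.12 without quiescent array 4. None was called and 3 were higher at an unadjusted p under 0.05, Hadha among them, beside 1.96% of all genes. Ppara, the nuclear receptor that drives fatty acid oxidation genes, was at 48, 121 and 20 in quiescent cells, at 311, 471, 244 and 732 in irradiated cells and at 13 to 19 in activated cells (2.62 ± 0.51, adjusted p = 0.515 in limma). Its lowest irradiated array was about 2 times its highest quiescent array. Acat1, which makes and splits acetoacetyl-CoA, was at 3061, 672 and 812 against 2088, 3042, 3196 and 3061 (1.23 ± 0.52), where quiescent array 1 was as high as the irradiated arrays.

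Of 44 cytosolic ribosomal proteins, 32 had a higher and 10 a lower irradiated mean. At an unadjusted p under 0.05, 5 were higher and 1 lower, beside 1.96% and 2.00% of all genes. The median was 0.28, but 0.02 without quiescent array 2. Rps20 was at 5599, 4937 and 2054 against 7821, 10421, 6905 and 7028 (1.04 ± 0.34). The mean of Rps20 probe sets gave 0.46. Rpl10a was at 3361, 931 and 3405 against 4152, 4748, 6201 and 4736 (1.15 ± 0.44). Both had every irradiated array above the quiescent arrays. Rpl22 was at 1928, 365 and 1077 against 7431, 2976, 1746 and 3423 (1.87 ± 0.63). Rps7 was lower, at 1812, 1091 and 1686 against 805, 778, 877 and 1052 (-0.77 ± 0.19), but its second probe set overlapped, at 973, 720 and 633 against 702, 802, 690 and 1081. Ribosomal proteins have many near-identical processed pseudogenes, so that probe sets may read more than 1 copy. In activated cells 19 of the 44 were called higher than in irradiated cells, beside 3.40% of all genes.

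**Figure D5:**
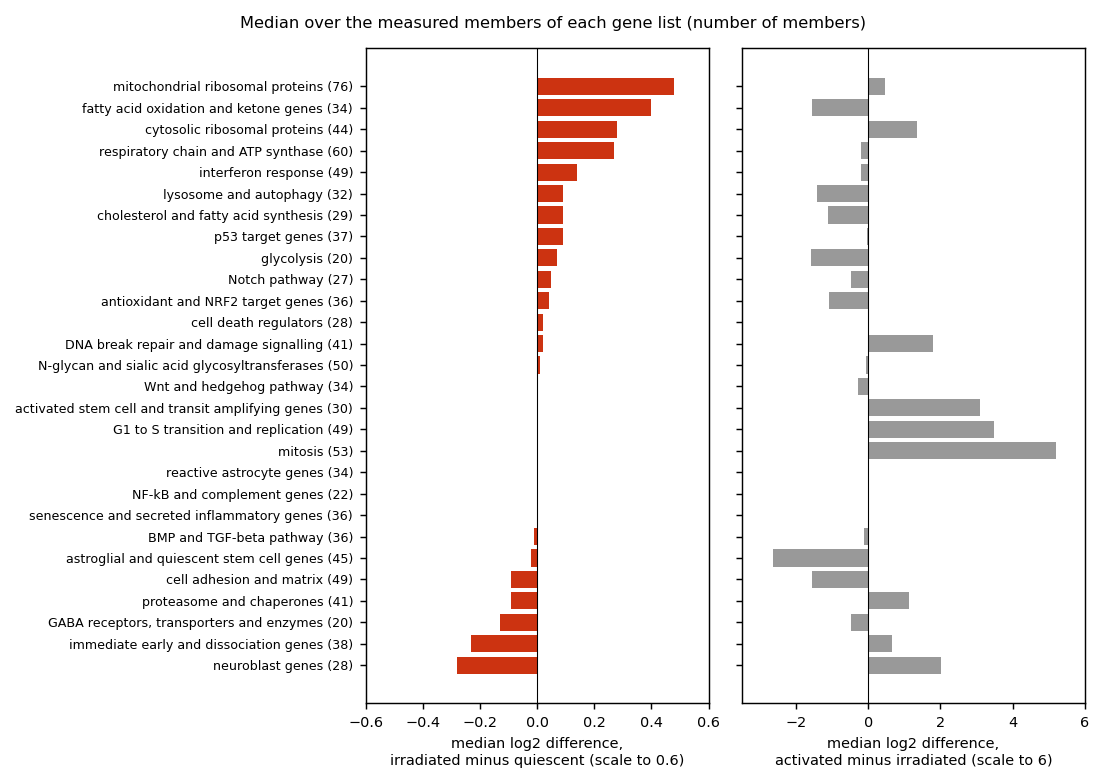
Median log2 difference over the measured members of each of 28 lists of pathways, processes and cell states, irradiated minus quiescent (left, axis to 0.6) and activated minus irradiated (right, axis to 6), with the number of members in brackets. Mitochondrial ribosomal proteins (0.48) and fatty acid oxidation genes (0.40) lie highest and neuroblast genes (-0.28) lowest on the left, and mitosis reaches 5.21 on the right. Marker lists of cell types are not plotted here.

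Glycosyltransferases of N-linked glycans gave 4 lower and no higher genes of 50 at an unadjusted p under 0.05, Mgat4a among them, beside 2.00% of all genes. The groups were apart for 5, all lower, beside 1.37% of all genes, while the median was 0.01. St6gal1, which caps glycans with sialic acid, was at 2494, 2060 and 2335 in quiescent cells, at 984, 814, 868 and 1349 in irradiated cells and at 299 to 446 in activated cells (-1.20 ± 0.20). Its second probe set overlapped, at 30, 74 and 161 against 183, 134, 177 and 94, and the mean of probe sets gave -0.19. B4galt4 was at 74, 40 and 23 against 15, 5, 5 and 18 (-1.15 ± 0.30), and B4galt1 at 81, 32 and 39 against 10, 9, 10 and 10 (-1.30 ± 0.43). Both add galactose, and both were dim in either group. Mgat5, which adds another branch, was at 1680, 1624 and 2050 against 1376, 681, 1408 and 1432 (-0.59 ± 0.35). Galnt2, which starts O-linked glycans and is not in the list, was at 904, 547 and 465 against 205, 45, 50 and 52 (-2.83 ± 0.55), while its second probe set overlapped at 472, 153 and 8 against 7, 45, 672 and 416.

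Of 34 Wnt and hedgehog genes, 1 was higher (Tcf7l1) and 4 were lower at an unadjusted p under 0.05. Over all genes these shares were 1.96% and 2.00%. The median of the list was 0. The lower genes included bright receptors and effectors with small differences. Fzd2, a Wnt receptor, was at 8017, 9528 and 10868 in quiescent cells and at 5934, 7415, 6174 and 7073 in irradiated cells (-0.50 ± 0.18). Ctnnb1, beta-catenin, was at 4747, 5653 and 3982 against 3761, 2805, 4388 and 3291 (-0.43 ± 0.17). Tcf7l2, a partner of beta-catenin, was at 2823, 3334 and 4274 against 951, 1342, 1212 and 3385 (-1.17 ± 0.47). Only Fzd2 of these 3 had groups that did not overlap. Each has a bright probe set with a higher irradiated mean, and means of probe sets were -0.05 for Fzd2, -0.08 for Ctnnb1 and -0.07 for Tcf7l2. Ptch1, the hedgehog receptor, was at 4130, 3349 and 3827 against 2693, 3302, 1404 and 3201 (-0.57 ± 0.29), but the mean over its probe sets gave 0.13.

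The Notch pathway, which holds these stem cells in quiescence, had 1 higher and no lower gene of 27 at an unadjusted p under 0.05. The higher share over all genes was 1.96%, and the median of the list was 0.05. Notch3 was at 89, 35 and 74 in quiescent cells, at 1146, 301, 200 and 281 in irradiated cells and at a mean of 30.7 ± 23.4 (SD, n = 3) in activated cells (2.32 ± 0.67, adjusted p = 0.970 in limma). Adam17, a protease that sheds Notch and other surface proteins, was at 176, 289 and 97 against 440, 499, 420 and 482 (1.34 ± 0.64). Both were higher on every irradiated array, and means of probe sets were 1.43 for Notch3 and 0.33 for Adam17. Rbpj, the DNA-binding partner of cleaved Notch, was at 215, 721 and 177 against 11, 144, 118 and 131 (-1.74 ± 0.79) and lower on every irradiated array. Notch3 is also made by pericytes, whose 6 markers summed to 1635 to 4757 on the quiescent and 1756 to 7006 on the irradiated arrays, and their part in the Notch3 values was not tested.

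Receptors and genes of the astroglial state differed little. GABA, which neuroblasts release onto stem cells, is sensed through receptors of which Gabrb1 was at 4138, 5458 and 6909 against 6434, 4743, 4101 and 4926 (-0.11 ± 0.67). Gabrg1 was at 3510, 3935 and 3571 against 2973, 2177, 3481 and 3299 (-0.32 ± 0.46). It lay lower on every irradiated array, by a small margin for the highest of them. A second Gabrg1 probe set overlapped, at 347, 628 and 387 against 766, 267, 566 and 387, a difference of 0.07. Dbi, an endogenous modulator of these receptors, was at 12788, 11286 and 13772 against 16134, 12712, 12888 and 15008 (0.17 ± 0.11). Gabra2 was at 5, 8 and 174 against 6 on every irradiated array. None of the 20 GABA genes passed an unadjusted p under 0.05. Of 45 astroglial and quiescent stem cell genes, 1 was higher, none was lower and the median was -0.02, whereas 36 of them were called lower in activated than in irradiated cells (median -2.65), beside 3.68% of all genes.

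Slc1a3, the glutamate transporter GLAST, was at 13391, 17626 and 13543 in quiescent cells, at 14085, 11182, 12455 and 11748 in irradiated cells and at 2229 to 3696 in activated cells (-0.26 ± 0.20). Vcam1, the adhesion molecule by which these cells are anchored in the niche, was at 4844, 5055 and 4303 against 5401, 5387, 4451 and 4041 (0.02 ± 0.16), and at 362 to 536 in activated cells. Id3, a target of BMP signalling, was at 2536, 2286 and 5327 against 2780, 2108, 3340 and 3472 (-0.13 ± 0.53). The groups overlapped on these probe sets. A dimmer Slc1a3 probe set was lower on every irradiated array, at 976, 1155 and 909 against 513, 297, 277 and 24, and a second Vcam1 probe set was higher, at 1957, 1602 and 1415 against 2254, 2278, 4393 and 2836. Mt2, a metallothionein, was the gene of this list past the unadjusted threshold, at 18638, 14300 and 18104 against 19642, 21132, 22323 and 19296, higher on every irradiated array by a small amount (0.28 ± 0.10).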

How the data were processed

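The labels describe 12 samples, of which 10 arrays had values. The authors deposited 1 linear intensity per probe set and array, as whole numbers, and how they were made from the scans is not given in the sources used here. Of 45037 probe sets, 34945 had 1 gene symbol in the platform annotation. Each gene took its probe set with the highest mean of log2(intensity + 16), and no normalization or filter was applied. Comparisons used limma 3.58.1 in R 4.3.3 (lmFit on all 10 arrays with 1 coefficient for each group, eBayes, 7 residual degrees of freedom), tested on simulated data, with Benjamini-Hochberg adjustment over 18193 genes.

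Named genes were those called, the 14 rises and 14 falls with the smallest p among genes with groups apart and a mean of at least 100, up to 2 members of each list at an unadjusted p under 0.05, a set of markers, and the brightest and most variable genes; other members named beside their list were picked after their values were seen. Genes, lists and comparison were chosen with earlier results of these data known. Alternatives were other pseudocounts (1 and 64), quantile normalization, leaving out the dimmest 50% of genes, the mean of probe sets, a fit of both quiescent groups alone, trend with robust moderation, array weights, the replicate number as a block, and leaving out each array. A floor at 10 was added after seeing the data.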

Additional observations from a re-analysis of the deposited data

Results flagged for a closer look

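Of 96 results tested for an irradiated array far from the other 3 by Dixon's criterion on its gap to the nearest array, 9 were singled out. Ninj1 and Bex1 had been chosen for their wide spread. Without the genes chosen that way it was 7 of 92, where chance gives about 1 in 20. Irradiated array 1 was the outlying array in 5 of them. It was highest for Galnt2 (205), Ndufa9 (1678) and Bex1 (6425) and lowest for Acat1 (2088) and Rbpj (11). Irradiated array 2 was highest for Ephx1 (1799) and Ninj1 (12423) and lowest for Egfr (219). Irradiated array 4 was lowest for Ndufa3 (4383). For Galnt2, Ndufa9, Ephx1, Ndufa3 and Rbpj the outlying array left the groups apart.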

How the results depend on the processing

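Differences past the threshold depended on the processing. Higher genes numbered 0 with quantile normalization, without the dimmest 50%, with 2 groups alone, with array weights, with robust trended moderation, with the replicate block and with a floor at 10. Lower genes numbered 3 with pseudocount 1, 2 without the dimmest 50%, and 0 with 2 groups alone and with the replicate block. Leaving out 1 array gave 0 to 5 higher and 0 to 40 lower genes. The causes were not tested. The deviations of same-numbered samples correlated with r of 0.027, 0.018 and -0.011. Those of differently numbered samples correlated with r between -0.037 and 0.018. Whether the numbers mark paired samples was not tested. Under the replicate block adjusted p in limma was 0.317 for Mgat4a and 0.699 for Mrpl4.

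Of 110 named genes, 91 kept their direction in all 20 alternatives. Reversed were Lamp2 (0.28), Ttr (0.09), Ptn (-0.13), Ptch1 (0.13) and Top2a (0.00) with the mean of probe sets. Phlda3 gave 0.01 with pseudocount 64, 0.33 with array weights and 0.05 with the block. Vcam1 gave -0.04 with quantile normalization and -0.02 with array weights, and Nes 0.03 and 0.00. Cst3 gave 0.05, 0.01 and, with the block, 0.03. Malat1 gave 0.01 with quantile normalization. With the block Gabrb1 gave 0.02, Clu 0.02 and Top2a 0.17, and with the floor Top2a gave -0.00.

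Leaving out 1 array turned 15 of the 110. The differences then ranged from -0.74 to 2.03 for Mdm2, -0.82 to 0.41 for Phlda3, -0.47 to 1.34 for Ccnd2, -0.05 to 0.10 for Vcam1 and -0.35 to 0.25 for Id3. They ranged from -0.08 to 0.08 for Nes, -1.15 to 0.00 for Dcx, -0.30 to 0.07 for Gabrb1, -0.29 to 0.10 for Ttr and -0.97 to 2.21 for Ninj1. They ranged from -0.84 to 2.09 for Arhgef1, -0.14 to 0.00 for Malat1, -0.05 to 0.05 for Cst3 and -0.02 to 0.04 for Slc1a2. The spread between arrays and the lower limit bound what can be measured: 6436 genes were near the limit on all 7 arrays.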

Other observations

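Of 49 adhesion and matrix genes, 2 were higher and 2 lower at an unadjusted p under 0.05, beside 1.96% and 2.00% of all genes. The median was -0.09. Lower members of this list and genes of vessels and neurons follow, picked by p, so they show 1 direction only. The 2 higher members are not described here. Of the 6 neuron markers 1 had a higher and 5 a lower irradiated mean, and the 6 endothelial markers divided in the same way. Lama2, a laminin chain, was at 1154, 327 and 1152 in quiescent cells and at 84, 105, 374 and 246 in irradiated cells, so that irradiated array 3 lay within the quiescent range (-2.05 ± 0.63). Fn1, fibronectin, was at 228, 49 and 124 against 27, 10, 22 and 10 (-2.01 ± 0.65), lower on every irradiated array. Igfbp7, a secreted protein of vessels, was at 718, 200 and 135 against 67, 116, 33 and 10 (-2.24 ± 0.70), also lower throughout. Esam, an endothelial adhesion protein, was at 241, 73 and 5 against 5 on every irradiated array. Esam is itself among the 6 endothelial markers, whose sums were 627, 627 and 30 against 30 to 119. The part of endothelial cells in these values was not tested. Penk, the enkephalin precursor, was at 5160, 1123 and 280 against 153, 5, 142 and 345 (-3.34 ± 1.19), and Syt1, of synaptic vesicles, at 384, 63 and 127 against 71, 18, 7 and 9 (-2.19 ± 0.64). Penk and Syt1 are themselves among the 6 neuron markers, whose sum was highest on quiescent array 1, at 11781. That sum is thus not a separate observation, and the part of neurons in these values was not tested. None of these genes was called by limma.

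Oligodendrocyte lineage factor Olig1 was at 1430, 1283 and 1375 against 839, 1110, 1170 and 1070 (-0.38 ± 0.11), lower on every irradiated array. Hspa9, the mitochondrial HSP70, was at 1865, 1704 and 2168 against 1253, 1441, 1262 and 1382 (-0.51 ± 0.13), against the direction of most mitochondrial genes. Scd1, the stearoyl-CoA desaturase, was at 1532, 2094 and 1242 against 1151, 1021, 542 and 486 (-1.07 ± 0.42). Each of these 3 genes had its groups apart, and none was called by limma. Means of probe sets were -0.05 for Hspa9 and -0.22 for Scd1. Ttr, the transthyretin of choroid plexus, was at 17831, 10772 and 16624 against 10376, 19809, 19041 and 9992, overlapping, and at 6 on each activated array.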
